A study of Homo sapiens with 30 samples.

Results

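Amino acid transporter genes were followed through RB1 depletion, androgen and inhibitor treatment in 3 prostate cancer cell lines. The 10 genes were taken by their symbols (SLC3A2, SLC7A5, SLC7A11, SLC1A4, SLC1A5, SLC43A1, SLC43A2, SLC36A1, SLC38A1 and SLC38A2) from the 57773 genes listed in each of 4 tables of RNA-seq read counts, and each symbol was found in all 4. C4-2-tet-shRB cells are C4-2 cells, a castration-resistant derivative of LNCaP, with a hairpin RNA against the tumour suppressor RB1 that doxycycline switches on. In the androgen experiment they received DHT (dihydrotestosterone, 10 nM, 24 h), against vehicle, after 0, 3 or 30 days of doxycycline at 0.05 ug/ml, in 8% charcoal-stripped and 2% regular serum, with 1 library per group. In the inhibitor experiment they received doxycycline at 0.05 ug/ml for 3 days with GSK2879552 (10 uM, 24 h), doxycycline with DMSO, GSK2879552 alone or DMSO alone, in 5% charcoal-stripped serum, with 2 libraries per group. VCaP cells received an siRNA against RB1, against a non-targeting siRNA, at 20 nM for 2 days, with 3 libraries per group, in 10% fetal bovine serum by the labels although the library names refer to stripped serum. LNCaP cells received GSK2879552 at 1 uM for 2 days, against vehicle, in 5% stripped serum, with 1 library per group. GSK2879552 is an irreversible inhibitor of the histone demethylase LSD1. No group had a control hairpin with doxycycline, so RB1 loss, doxycycline and hairpin induction cannot be told apart in C4-2 cells.

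Amino acid transporters set how fast a cell takes up the building blocks of protein, glutathione and nucleotides. SLC3A2 (CD98) is a heavy chain that carries light chains to the cell surface: with SLC7A5 (LAT1) it exchanges glutamine for leucine and other large neutral amino acids, and with SLC7A11 (xCT) it exchanges glutamate for cystine, the precursor of glutathione. SLC1A4 (ASCT1) and SLC1A5 (ASCT2) exchange small neutral amino acids and glutamine, SLC38A1 and SLC38A2 bring in glutamine and alanine with sodium, SLC43A1 (LAT3) and SLC43A2 (LAT4) carry leucine and related amino acids by facilitated diffusion, and SLC36A1 is a proton-coupled carrier found on lysosomes. Several of these genes are known targets of ATF4, the transcription factor of the amino acid and stress response, SLC7A11 is also known as a target of NRF2, and SLC43A1 is known in prostate cells as an androgen-induced gene.

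The stretches of promoter below are shown because ATF4 and NRF2 are known regulators of several of these genes. RefSeq gene starts in GRCh38.p14, which is not the build of the count tables, gave 19 windows for SLC1A4, SLC1A5, SLC36A1, SLC38A1, SLC38A2, SLC3A2, SLC43A1, SLC43A2 and SLC7A5. Each window ran from 250 bases before to 50 bases after the start and was searched on both strands. The ATF4 composite element (TGATGNAA) was in 4 of the 19 windows, 1 each of SLC1A4, SLC1A5, SLC38A1 and SLC3A2, and in 3.62% of 35116 promoter windows in all. The antioxidant response element bound by NRF2 (TGACNNNGC) was in 3 of the 19 windows, of SLC1A5, SLC3A2 and SLC7A5, a share close to the 13.3% of all windows. The E-box CACGTG was in 4 of the 19 windows (7.26% of all), and neither the full palindromic androgen response element (0.00285% of all) nor the E2F site TTTGGCGC or TTTCCCGC (2.27% of all) was in any of the 19. No match overlapped another in these windows, and SLC7A11 had no entry. Each stretch is 30 bases in the gene's own direction, with the match in capitals; a match is a stretch of letters and not evidence of binding.
SLC1A4 (ATF4 element on the other strand, its first base 7 bases before the start, chr2:64989381-64989410, plus strand): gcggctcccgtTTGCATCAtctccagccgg
SLC1A5 (ATF4 element, 97 bases before a start, chr19:46784893-46784922, minus strand): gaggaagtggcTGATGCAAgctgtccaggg
SLC1A5 (antioxidant element on the other strand, 111 bases before another start, chr19:46787385-46787414, minus strand): cctggatcttGCGAGGTCAgctcccgctcc
SLC38A1 (ATF4 element, 4 bases before the start, chr12:46266502-46266531, minus strand): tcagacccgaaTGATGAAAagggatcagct
SLC3A2 (ATF4 element on the other strand, 37 bases after the start, chr11:62881719-62881748, plus strand): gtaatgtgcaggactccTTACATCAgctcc
SLC3A2 (antioxidant element, 37 bases before the start, chr11:62881652-62881681, plus strand): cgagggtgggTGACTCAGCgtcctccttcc
SLC7A5 (antioxidant element, 2 bases before the start, chr16:87869490-87869519, minus strand): gcggggttccTGACGCAGCtgcgggcggcg

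Counted reads ran from 4.31e+06 to 7.11e+06 per library in VCaP and from 1.31e+07 to 2.23e+07 in the other 3 tables. Both columns of each group in the androgen and LNCaP tables differed by no more than counting noise (chi-square per degree of freedom 0.983 to 1.01) and were summed as 1 library. Pairs of VCaP libraries within a group gave 1.13 to 1.39, under the limit of 1.5 set for summing, but were kept as separate libraries. Their spread was little above counting noise, and the VCaP p-values rest on it. The GSK2879552-alone pair of C4-2 libraries stood furthest apart of the replicate pairs (7.88), and results that use that group are given with this in view. RB1 fell in each depletion, with log2 changes of -3.22 in VCaP, -2.18 with doxycycline and DMSO, -2.14 with doxycycline and GSK2879552, and -2.49 and -2.98 after 3 and 30 days in the androgen experiment. Prostate luminal markers summed to between 3636 and 22406 CPM (read counts scaled to library size with TMM factors, as all levels here) in every library, and 9 leukocyte markers together to at most 2.71 CPM; PTPRC, the pan-leukocyte antigen, did not pass 0.782 CPM. Library sizes moved with the groups: RB1 siRNA libraries of VCaP were deeper than control libraries (6.22e+06 to 7.11e+06 against 4.31e+06 to 4.55e+06 reads), as were doxycycline and DMSO libraries of C4-2 (2.05e+07 and 2.23e+07 against 1.45e+07 and 1.57e+07 with DMSO alone). Their mitochondrial shares also differed, at 2.59% to 2.73% with RB1 siRNA against 2.93% to 3.09% with control siRNA in VCaP, and at 5.46% and 5.47% with doxycycline and DMSO against 3.48% and 4.48% with DMSO alone in C4-2. The part of depth and mitochondrial share in the results was not tested. In bulk samples fewer cells and less RNA per cell cannot be told apart.

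In control cells the transporter genes ranked differently in the 3 lines, by RPKM (read counts scaled to library size and exon length). SLC1A5 had the highest RPKM of the 10 in VCaP with control siRNA (126 RPKM, mean of 3), in LNCaP with vehicle (49.0) and in C4-2 with vehicle of the androgen experiment (89.8). In C4-2 with DMSO it shared the top with SLC7A5 (61.6 and 62.7 RPKM), and their libraries overlapped. SLC7A5 was the member that differed most in level: 62.0 RPKM in the vehicle library of C4-2, 4.92 in LNCaP and 0.446 in VCaP, where 6, 10 and 12 reads were counted per control library. SLC7A11 was near level in C4-2 with DMSO (8.79 RPKM) and LNCaP (8.58) and lower in VCaP (1.41). It stood at 52.4 RPKM in the vehicle library of the C4-2 androgen experiment. SLC38A1 (15.1, 17.8 and 35.0 RPKM in C4-2 with DMSO, LNCaP and VCaP) and SLC38A2 (20.6, 19.4 and 28.9), the sodium-coupled glutamine carriers, were higher in VCaP than in those controls but highest in the vehicle library of C4-2, at 48.0 and 67.6 RPKM. SLC36A1 ranged from 1.86 RPKM in LNCaP over 6.34 in VCaP to 19.4 in C4-2 with DMSO, and was at 7.70 in C4-2 with vehicle, so both C4-2 controls lay further apart than VCaP and C4-2 with vehicle. The order of genes by RPKM depends on the merged exon lengths used, and the annotation of the counts was not stated. By CPM SLC1A5 led in VCaP with control siRNA (419) but lay below SLC3A2 in LNCaP with vehicle (163 against 237). In C4-2 with vehicle it lay below SLC7A11, among others (299 against 505 CPM). Lines, media and library kits differ together here, so these levels are a description. Mitochondrial shares differed too: 19.2% in LNCaP and 10.4% in C4-2 with vehicle, 3.48% and 4.48% in C4-2 with DMSO, and 2.93% to 3.09% in VCaP with control siRNA. Their part in these levels was not tested.

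**Figure D1:**
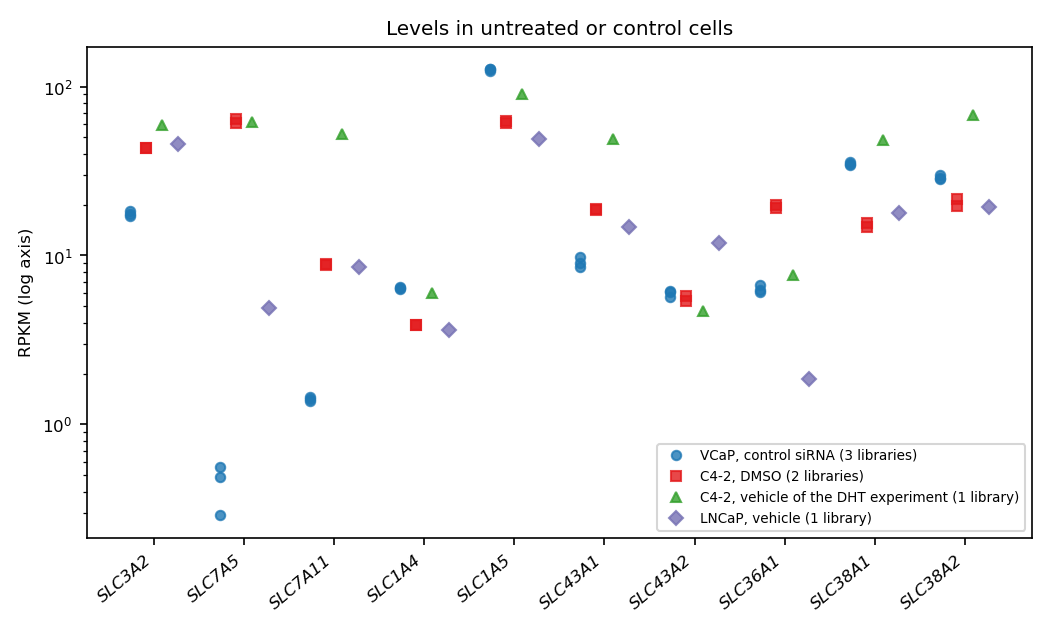
RPKM on a log axis of the 10 genes in control cells, 1 point per library: VCaP with control siRNA (3), C4-2 with DMSO (2), C4-2 with vehicle of the androgen experiment (1) and LNCaP with vehicle (1). SLC7A5 spans from under 1 RPKM in VCaP to about 62 RPKM in both C4-2 experiments, while SLC1A5 lies at or near the top in every line.

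DHT moved the transporter genes of C4-2 cells in opposite directions according to the transporter. The CD98 heavy chain, both of its light chains and both ASCT genes fell, whereas SLC43A1, SLC36A1 and SLC38A2 rose. Over the 3 doxycycline levels 5 of 10 genes were lower and 3 higher at an adjusted p under 0.05 in edgeR (fit of DHT and doxycycline level as additive terms). DHT called 47.1% of all 17300 genes tested (24.3% higher and 22.8% lower), so a share of 8 in 10 is to be read against a background near 5 in 10. These effects are relative to the TMM scaling; scaling by total counts moved the median of all genes by -0.18. Mitochondrial shares were 11.3%, 11.8% and 10.4% with DHT, against 10.4%, 9.55% and 9.93% with vehicle, and their part in the result was not tested.

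Among the heterodimer genes, SLC7A5 had 121, 118 and 104 CPM with DHT after 0, 3 and 30 days of doxycycline, against 294, 309 and 282 CPM with vehicle. Every DHT library lay far below every vehicle library, and the log2 change was -1.37 ± 0.05 (SE, edgeR adjusted p = 1.08e-17). SLC7A11 had 196, 211 and 217 CPM with DHT, against 505, 524 and 572 CPM with vehicle. Here too the treatments did not overlap, and the gene changed by -1.36 ± 0.05 (edgeR adjusted p = 6.11e-18). SLC3A2 had 181, 184 and 188 CPM with DHT, against 308, 320.3 and 313 CPM with vehicle. The heavy chain thus changed by less than its light chains, at -0.77 ± 0.05 (edgeR adjusted p = 1.47e-12), although the difference between these genes was not tested. Without doxycycline, SLC7A5, SLC7A11 and SLC3A2 stood at 25.5, 20.3 and 35.0 RPKM with DHT, against 62.0, 52.4 and 59.6 RPKM with vehicle. By RPKM each light chain was near the heavy chain with vehicle and below it with DHT. This order depends on the exon lengths used. By CPM, without doxycycline, SLC7A11 was above SLC3A2 with vehicle (505 against 308) and with DHT (196 against 181).

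Both ASCT genes fell with DHT by less. SLC1A4 had 26.5, 29.3 and 29.3 CPM with DHT after 0, 3 and 30 days of doxycycline, against 41.8, 47.7 and 47.6 CPM with vehicle (log2 -0.69 ± 0.07, edgeR adjusted p = 2.16e-09). SLC1A5 had 231, 260.2 and 248 CPM with DHT, against 299, 324 and 312 CPM with vehicle (log2 -0.34 ± 0.05, edgeR adjusted p = 4.24e-06). The DHT and vehicle libraries did not overlap for either gene.

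SLC43A1, the facilitated leucine carrier, rose the most of the 10. It had 407, 387 and 412 CPM with DHT after 0, 3 and 30 days of doxycycline, against 172, 184 and 192 CPM with vehicle (log2 1.14 ± 0.05, edgeR adjusted p = 5.30e-16). By RPKM it ranked first of the 10 genes with DHT and no doxycycline (115 RPKM) and sixth with vehicle (48.7 RPKM). By CPM it lay below SLC38A2 and SLC38A1 with DHT and no doxycycline (407 against 553 and 453). Its relative SLC43A2 showed no such rise, with 45.7, 46.0 and 43.8 CPM with DHT against 49.8, 49.98 and 41.3 CPM with vehicle (log2 -0.05 ± 0.07, edgeR adjusted p = 0.537). SLC36A1 had 83.8, 64.3 and 64.8 CPM with DHT, against 53.7, 41.4 and 39.3 CPM with vehicle (log2 0.66 ± 0.06, edgeR adjusted p = 5.72e-10). Of the sodium-coupled glutamine carriers, SLC38A2 had 553, 554 and 619 CPM with DHT, against 447, 455 and 462 CPM with vehicle (log2 0.34 ± 0.05, edgeR adjusted p = 6.11e-06). SLC38A1 overlapped between treatments, at 453, 529.6 and 514 CPM with DHT against 481, 500.3 and 525 CPM with vehicle (log2 -0.01 ± 0.05, edgeR adjusted p = 0.882). With total-count scaling SLC43A2 (-0.24) and SLC38A1 (-0.20) became lower calls, SLC38A2 stood at 0.15 and SLC1A5 at -0.52.

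**Figure D2:**
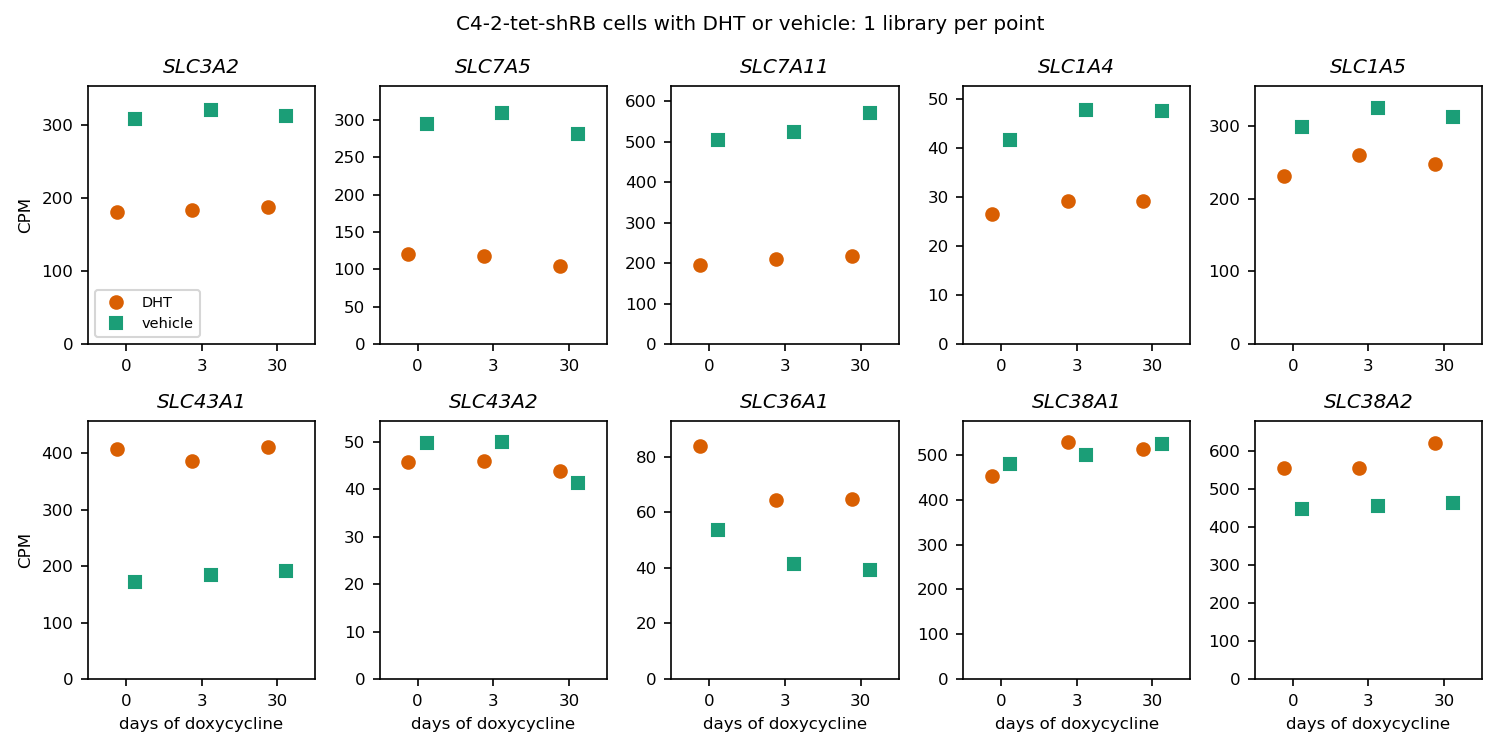
CPM of each gene in C4-2-tet-shRB cells after 0, 3 and 30 days of doxycycline, with DHT (circles, left) and vehicle (squares, right), 1 library per point. SLC3A2, SLC7A5, SLC7A11, SLC1A4 and SLC1A5 lie lower with DHT at all 3 doxycycline levels, and SLC43A1, SLC36A1 and SLC38A2 higher.

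At each doxycycline level the DHT response was taken as a ratio of 1 library to 1, with an interval that covers counting error only. The DHT to vehicle ratio of SLC7A5 was 0.412 (95% interval 0.389 to 0.436) without doxycycline, 0.381 (0.360 to 0.403) after 3 days and 0.370 (0.349 to 0.392) after 30 days. That of SLC7A11 was 0.388 (0.371 to 0.405), 0.402 (0.386 to 0.419) and 0.379 (0.364 to 0.395). SLC43A1 had ratios of 2.37 (2.26 to 2.48), 2.10 (2.01 to 2.20) and 2.15 (2.06 to 2.24). The SLC43A1 interval without doxycycline lay above both others. Such separation was not particular to SLC43A1. Intervals also lay apart for SLC38A1 (0.912 to 0.975 without doxycycline, 1.03 to 1.09 after 3 days) and SLC38A2 (1.20 to 1.28 without doxycycline, 1.30 to 1.38 after 30 days). These 3 genes were past 2-fold at all 3 levels; of the 12125, 12288 and 12312 genes with enough reads, 3.66%, 1.71% and 1.79% were at least 2-fold lower and 3.92%, 3.34% and 3.24% at least 2-fold higher after 0, 3 and 30 days. With total-count scaling SLC43A1 was past 2-fold only in cells without doxycycline. A change of the DHT response with RB1 depletion was not tested, since each cell of this design held 1 library.

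Genes that share the amino acid and stress response of ATF4 mostly fell with DHT as well. ATF4 itself had 325, 282 and 291 CPM with DHT, against 544, 558 and 526 CPM with vehicle (log2 -0.86 ± 0.06, edgeR adjusted p = 3.97e-13). Of 35 ATF4 and stress response genes, none of them a member, 25 were lower and 7 higher (median log2 -0.69, against -0.02 over all genes). The lower genes included STC2 (stanniocalcin, -1.52 ± 0.06), PSAT1 (serine synthesis, -1.33 ± 0.05) and ASNS (asparagine synthetase, -1.36 ± 0.06), and the higher ones the stress cytokine GDF15 (1.41 ± 0.05) and VEGFA (0.74 ± 0.06). Of 20 cytosolic tRNA synthetase genes, whose products charge tRNAs with amino acids, 11 were lower, such as GARS (-0.74 ± 0.06), and 3 higher by at most 0.18. Of 23 other amino acid transporter genes tested (44 listed), 8 were lower and 7 higher. SLC16A10, a carrier of aromatic amino acids, changed by -1.58 ± 0.08, the arginine carrier SLC7A2 by -1.02 ± 0.06 and the glycine carrier SLC6A9 by -1.25 ± 0.08. SLC38A4, a relative of SLC38A2, averaged 7.18 CPM with DHT and 0.0759 CPM with vehicle. All 29 androgen-induced genes tested were higher.

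With doxycycline for 3 days in the inhibitor experiment, 7 of the 10 transporter genes rose and none fell. The same 7 genes passed with DMSO and with GSK2879552: SLC1A4, SLC7A11, SLC1A5, SLC38A1, SLC38A2, SLC7A5 and SLC3A2. With DMSO, 7.84% of the 18423 genes tested were called (4.25% higher and 3.59% lower), and with GSK2879552 7.72% (4.52% higher and 3.2% lower). The median log2 change of the 10 genes was 0.35 with DMSO and 0.41 with GSK2879552, against -0.00166 and 0.00814 over all genes. The fit pooled the spread of all 4 groups, and leaving out 1 library moved the calls over all genes from 1444 to between 279 and 3200 with DMSO, and from 1422 to between 316 and 3201 with GSK2879552, so these backgrounds are loose.

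SLC1A4 rose the most of the 10 in both settings. It had 53.2 and 50.5 CPM with doxycycline and DMSO, against 26.9 and 27.1 CPM with DMSO alone (log2 0.94 ± 0.08, edgeR adjusted p = 4.93e-06). With GSK2879552 it had 58.4 and 59.9 CPM with doxycycline, against 32.3 and 32.0 CPM without (log2 0.88 ± 0.08, edgeR adjusted p = 7.59e-06). Its level was close to doubled in both settings, and the libraries did not overlap. SLC1A5 had 321 and 313 CPM with doxycycline and DMSO, against 207 and 204 CPM with DMSO alone (log2 0.63 ± 0.07, edgeR adjusted p = 2.71e-05), and changed by 0.52 ± 0.07 with GSK2879552.

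The cystine carrier had the largest rise of the CD98 genes, although the difference between these genes was not tested. SLC7A11 had 128 and 138 CPM with doxycycline and DMSO, against 84.1 and 85.4 CPM with DMSO alone (log2 0.65 ± 0.09, edgeR adjusted p = 2.53e-04). With GSK2879552 it had 133 and 137 CPM with doxycycline, against 86.3 and 69.5 CPM without (log2 0.79 ± 0.09, edgeR adjusted p = 4.26e-05). SLC7A5 had 367 and 346 CPM with doxycycline and DMSO, against 305 and 291 CPM with DMSO alone (log2 0.26 ± 0.07, edgeR adjusted p = 0.0357). SLC3A2 had 269 and 267 CPM with doxycycline and DMSO, against 225 and 223 CPM with DMSO alone (log2 0.26 ± 0.06, edgeR adjusted p = 0.0157). With GSK2879552 SLC7A5 changed by 0.38 ± 0.07 and SLC3A2 by 0.31 ± 0.06. The groups did not overlap, but leaving out any of the 4 libraries with DMSO ended the DMSO calls of SLC7A5 (adjusted p 0.139 to 0.323) and SLC3A2 (0.122 to 0.185). The SLC7A5 call was also lost without either doxycycline and GSK2879552 library (0.0536 and 0.0579). With GSK2879552 both calls were lost without the first library of that group (SLC3A2 0.0870, SLC7A5 0.0737).

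Both sodium-coupled glutamine carriers rose in this experiment. SLC38A1 had 206 and 225 CPM with doxycycline and DMSO, against 147 and 156 CPM with DMSO alone (log2 0.51 ± 0.08, edgeR adjusted p = 0.00118). SLC38A2 had 178 and 194 CPM with doxycycline and DMSO, against 130.2 and 142 CPM with DMSO alone (log2 0.45 ± 0.11, edgeR adjusted p = 0.0226). With GSK2879552 the values were 0.55 ± 0.08 for SLC38A1 and 0.44 ± 0.11 for SLC38A2. The SLC38A2 value was 0.68 without the first and 0.22 without the second library of GSK2879552 alone. SLC38A2 lost its call in DESeq2 (adjusted p 0.132 with DMSO and 0.162 with GSK2879552) and, with DMSO, without any of the 4 DMSO libraries (0.0656 to 0.265), and with GSK2879552 without the second library of doxycycline and GSK2879552 (0.304) or either with DMSO alone (0.0562 and 0.0566). SLC43A1, SLC43A2 and SLC36A1 did not pass with DMSO (log2 0.14 ± 0.08, 0.02 ± 0.08 and 0.02 ± 0.07), and with GSK2879552 SLC43A1 was just short of the threshold (0.25 ± 0.08, edgeR adjusted p = 0.0515), with SLC43A2 at 0.09 ± 0.08 and SLC36A1 at 0.11 ± 0.07.

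**Figure D3:**
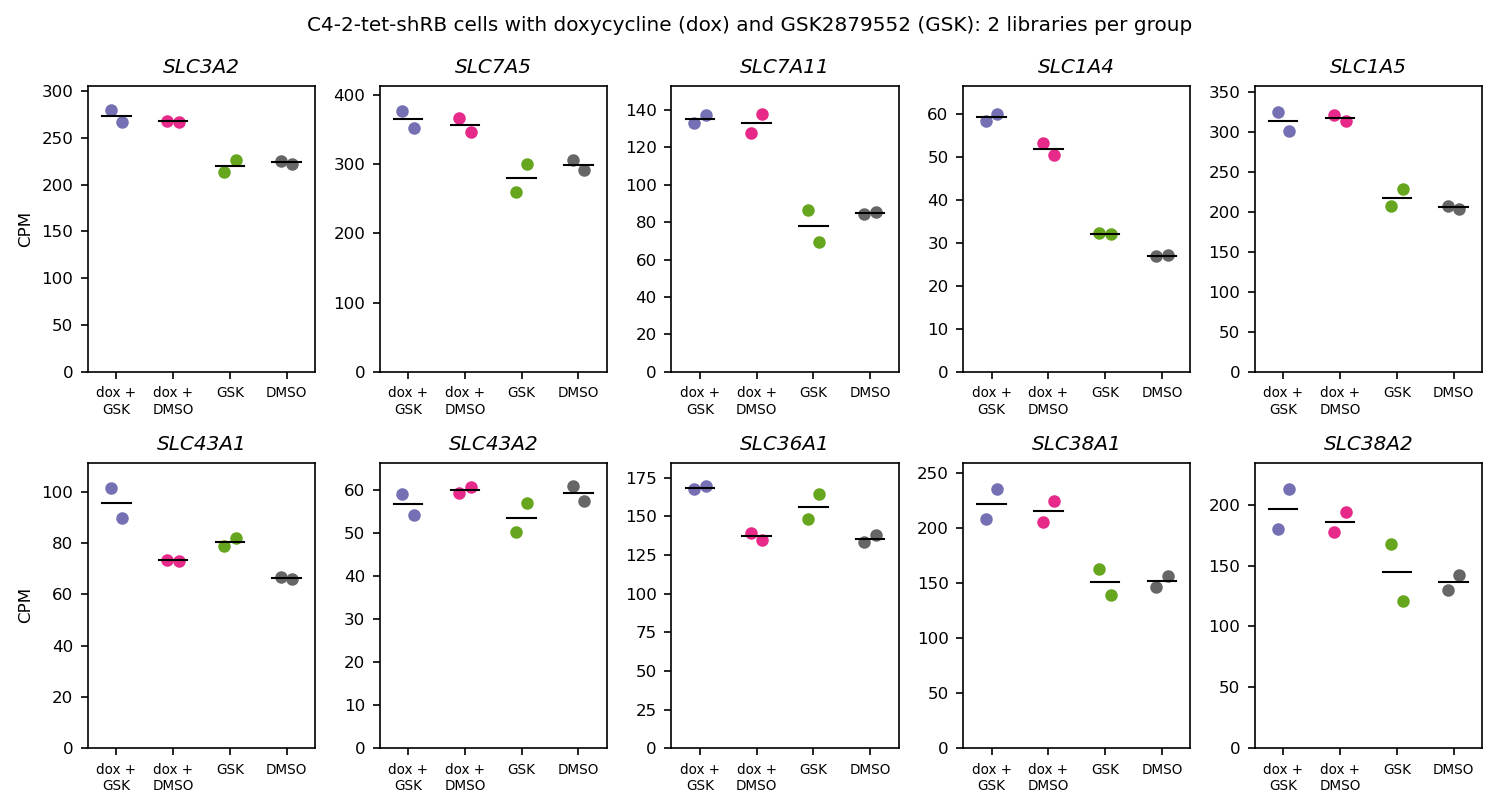
CPM of each gene in C4-2-tet-shRB cells with doxycycline and GSK2879552, doxycycline and DMSO, GSK2879552 alone and DMSO alone; points are the 2 libraries of a group and lines their mean. The doxycycline groups lie above their counterparts for SLC3A2, SLC7A5, SLC7A11, SLC1A4, SLC1A5, SLC38A1, SLC38A2 and, without a call, SLC43A1. GSK2879552 with doxycycline lies above doxycycline and DMSO for SLC43A1, SLC36A1 and, without a call, SLC1A4.

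Many genes of the ATF4 response also rose with doxycycline. ATF4 changed by 0.21 ± 0.06 with DMSO (edgeR adjusted p = 0.0451) and by 0.21 ± 0.06 with GSK2879552 (0.0513). Of the 35 listed genes 18 were higher and 1 lower with DMSO (median log2 0.34), and 20 higher and 1 lower with GSK2879552 (0.40). With DMSO they included the glutathione-degrading enzyme CHAC1 (1.17 ± 0.12), PSAT1 (0.58 ± 0.06) and SESN2, a leucine sensor (0.73 ± 0.09). Of 30 genes of amino acid synthesis 9 were higher and 2 lower with DMSO, among them the serine pathway enzyme PSPH (0.58 ± 0.08). Of the 24 other amino acid transporter genes tested, 3 were higher, SLC6A9 (0.53 ± 0.10), the glutamate carrier SLC1A1 (0.78 ± 0.17) and the lysosomal sensor SLC38A9 (0.33 ± 0.07), and SLC6A8, a creatine carrier, was lower (-0.27 ± 0.07). Of 20 genes tested of the NRF2 target list 2 were higher, FTH1 (0.56 ± 0.15) and NFE2L2, the gene of NRF2 (0.30 ± 0.08). The 2 lower ones were HMOX1, the haem oxygenase (-0.64 ± 0.08), and FTL (-0.32 ± 0.07).

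In the androgen experiment the same doxycycline dose for 3 days gave another picture. The log2 values of doxycycline in that experiment are averages over vehicle and DHT. Only SLC36A1 passed, and it fell: it had 64.3 CPM with doxycycline and 83.8 CPM without under DHT, and 41.4 CPM with doxycycline and 53.7 CPM without under vehicle (log2 -0.38 ± 0.07, edgeR adjusted p = 0.0128). After 30 days it had 64.8 CPM against 83.8 CPM under DHT, and 39.3 CPM against 53.7 CPM under vehicle (log2 -0.41 ± 0.07, edgeR adjusted p = 0.00137). The background was 0.468% of 17300 genes at 3 days (0.272% higher and 0.197% lower) and 4.03% at 30 days (2.51% higher and 1.52% lower), and leaving out 1 library moved these counts from 81 to between 19 and 1002, and from 697 to between 207 and 1965. The 3-day call was lost in DESeq2 (adjusted p 0.115) and without the doxycycline and DHT library (0.532). At an unadjusted p under 0.05, 4 members differed at 3 days and 5 at 30 days in edgeR. The share of all genes at this unadjusted cutoff was not taken, so these counts have no background. SLC7A11 stood at 0.08 ± 0.06 after 3 days and 0.16 ± 0.06 after 30 days, SLC1A4 at 0.17 ± 0.08 at both times, SLC1A5 at 0.14 ± 0.06 and 0.08 ± 0.06, and SLC38A1 at 0.14 ± 0.07 and 0.15 ± 0.07. The other 5 genes lay between 0.01 and 0.04 after 3 days and between -0.17 (SLC43A2) and 0.11 (SLC38A2) after 30 days, with SLC7A5 at -0.14 ± 0.07. No member was called between 30 and 3 days in edgeR, against 0.324% of genes called (0.254% higher and 0.0694% lower), and none was by DESeq2. At an unadjusted p under 0.05 in edgeR 2 members differed, again without a background. Of the 35 ATF4 response genes none was higher, and 1 was lower at 3 days and 2 at 30 days.

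The difference between both C4-2 experiments in the 3-day doxycycline effect was tested in a joint fit. On the androgen side the effect was averaged over vehicle and DHT. On the inhibitor side it was that of doxycycline and DMSO over DMSO alone. It was called higher in the inhibitor experiment for 6 of 10 members, against 1.83% of 21349 genes called (1.22% higher and 0.614% lower). SLC1A4 differed by 0.78 ± 0.12 (edgeR adjusted p = 1.56e-05), SLC7A11 by 0.58 ± 0.10 (1.18e-04) and SLC1A5 by 0.50 ± 0.08 (5.82e-05). SLC38A2 differed by 0.44 ± 0.12 (edgeR adjusted p = 0.0291), SLC36A1 by 0.41 ± 0.10 (0.0124) and SLC38A1 by 0.38 ± 0.10 (0.0199), and these 3 calls were fragile. Each was lost without the first DMSO library, the vehicle library or the doxycycline and vehicle library (adjusted p 0.0589 to 0.223). SLC36A1 and SLC38A2 also lost it without either DHT library of this contrast (0.0584 to 0.176), SLC36A1 without the first (0.0796) and SLC38A1 and SLC38A2 without the second doxycycline and DMSO library (0.202 and 0.187), and SLC38A2 in DESeq2 (0.0891). SLC3A2 (0.23 ± 0.08, edgeR adjusted p = 0.172) and SLC7A5 (0.25 ± 0.10, 0.232) were not called, nor were SLC43A1 (0.15 ± 0.10) and SLC43A2 (0.02 ± 0.11). DESeq2 did call SLC3A2 higher in this difference (log2 0.22, adjusted p 0.0354). Of the ATF4 response genes 19 of 35 were called higher and 1 lower in the same test, and ATF4 differed by 0.30 ± 0.08 (edgeR adjusted p = 0.0389). RB1 fell in both experiments, with a difference of 0.32 ± 0.21 (edgeR adjusted p = 0.590). The experiments differed in serum, library kit and vehicle, and the androgen side included cells given DHT. These differences cannot be told apart.

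In VCaP cells the RB1 siRNA raised SLC7A11, SLC3A2, SLC38A2 and, by little, SLC1A5, and lowered SLC36A1. Thus 4 members were higher and 1 lower, against 5.62% of 14066 genes called (2.96% higher and 2.65% lower). SLC7A11 had 21.0, 21.5 and 21.9 CPM with RB1 siRNA, against 13.7, 13.2 and 13.9 CPM with control siRNA. Its groups did not overlap and the log2 change was 0.65 ± 0.12 (edgeR adjusted p = 1.20e-04). SLC3A2 had 125, 126 and 116.3 CPM with RB1 siRNA, against 91.0, 88.8 and 95.01 CPM with control siRNA (log2 0.42 ± 0.05, edgeR adjusted p = 9.98e-09). The partner of the pair, SLC7A5, was counted at 20, 5 and 15 reads with RB1 siRNA and at 6, 10 and 12 reads with control siRNA, too few for a difference to be detectable (log2 -0.06 ± 0.37).

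SLC38A2 had 228, 217 and 232 CPM with RB1 siRNA, against 197, 187 and 189 CPM with control siRNA (log2 0.24 ± 0.04, edgeR adjusted p = 1.55e-05). Its relative SLC38A1 had 348, 349.9 and 347 CPM with RB1 siRNA and 348, 359 and 344 CPM with control siRNA, with overlapping groups (log2 -0.01 ± 0.04). SLC1A5 had 452, 454 and 447 CPM with RB1 siRNA, against 422, 421 and 415 CPM with control siRNA (log2 0.11 ± 0.03, edgeR adjusted p = 0.0387). Although the groups did not overlap, this call was lost in DESeq2 (adjusted p 0.117) and without any of 5 of the 6 libraries, all but the third with RB1 siRNA (0.0826 to 0.154). SLC1A4 (48.8, 52.3 and 49.3 CPM with RB1 siRNA, 45.3, 44.2 and 44.6 CPM with control siRNA) also separated the groups but did not pass (log2 0.17 ± 0.08, edgeR adjusted p = 0.248). SLC36A1 had 32.5, 34.2 and 33.7 CPM with RB1 siRNA, against 46.7, 43.5 and 42.6 CPM with control siRNA (log2 -0.40 ± 0.09, edgeR adjusted p = 6.38e-04). SLC43A2 had 52.6, 56.6 and 54.9 CPM with RB1 siRNA, against 65.2, 64.8 and 59.9 CPM with control siRNA, groups that did not overlap although the test was not passed (log2 -0.21 ± 0.07, edgeR adjusted p = 0.0618). SLC43A1 had 40.9, 34.9 and 31.6 CPM with RB1 siRNA and 32.0, 34.6 and 30.3 CPM with control siRNA, which overlapped (log2 0.16 ± 0.10, edgeR adjusted p = 0.409).

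ATF4 rose in VCaP cells with the RB1 siRNA (0.23 ± 0.04, edgeR adjusted p = 3.81e-06), and of 32 tested genes of its response 16 were higher and 1 lower (median log2 0.21). Among them were GDF15 (1.19 ± 0.16), the phosphatase subunit PPP1R15A (0.61 ± 0.07) and VEGFA (0.55 ± 0.06), and the lower gene was ATF5 (-0.46 ± 0.07). Of 20 tRNA synthetase genes 5 were higher, such as AARS (0.19 ± 0.04) and MARS (0.20 ± 0.04). Of 22 other amino acid transporter genes tested SLC7A1, the main arginine and lysine carrier, was the single call (0.14 ± 0.04). Of 19 NRF2 target genes TXNRD1, a thioredoxin reductase, was the single call (0.18 ± 0.04).

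The effect of the RB1 siRNA in VCaP lay below that of doxycycline with DMSO in C4-2 for 4 of the 10 genes in the joint fit, against 3.97% of 21349 genes called (2.58% higher and 1.39% lower). The differences were -0.73 ± 0.12 for SLC1A4 (edgeR adjusted p = 2.88e-05), -0.48 ± 0.08 for SLC1A5 (1.95e-05), -0.47 ± 0.09 for SLC38A1 (5.21e-04) and -0.38 ± 0.11 for SLC36A1 (0.0313). The SLC36A1 difference was lost without any single VCaP library and without the first DMSO or either doxycycline and DMSO library of C4-2 (adjusted p 0.0520 to 0.135). SLC7A11 differed by 0.05 ± 0.15 (edgeR adjusted p = 0.970) and SLC3A2 by 0.20 ± 0.09 (0.207). SLC7A5 (-0.28 ± 0.36), SLC43A1 (0.06 ± 0.12), SLC43A2 (-0.19 ± 0.11) and SLC38A2 (-0.16 ± 0.11) were not called either. The RB1 change itself differed by -0.998 (edgeR adjusted p = 0.00532). Knockdown reagent, line and medium differ together and cannot be told apart.

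**Figure D4:**
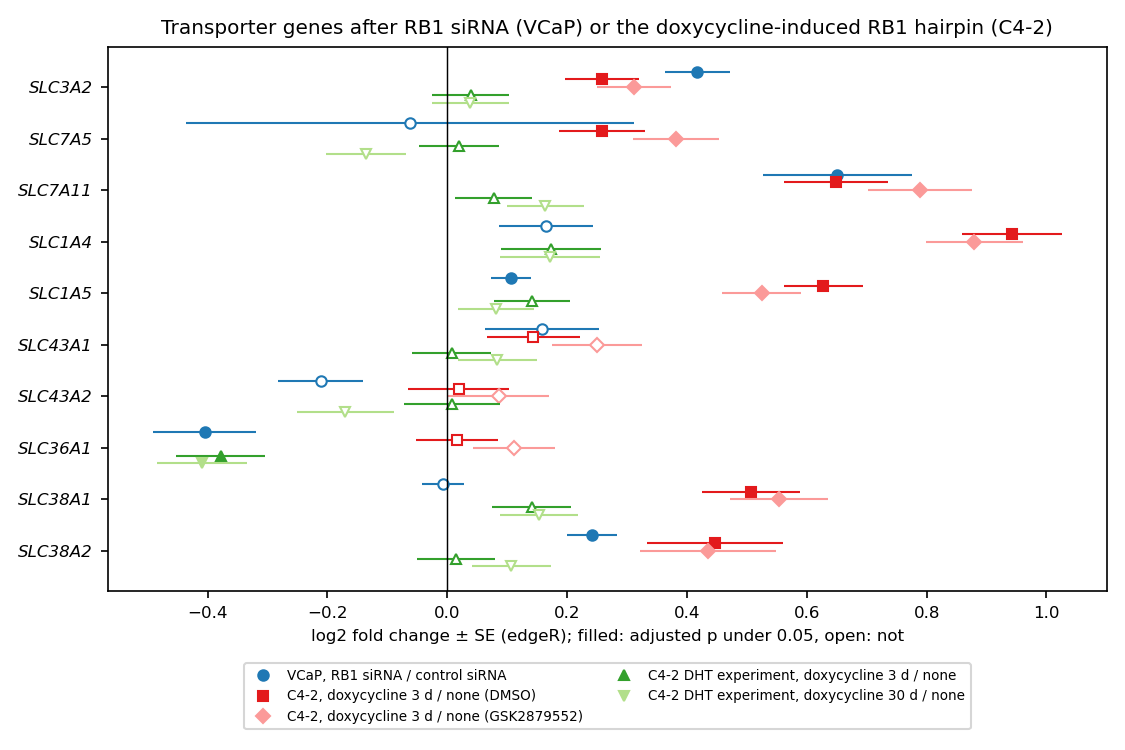
Log2 fold change with its SE of each gene after RB1 siRNA in VCaP and after doxycycline in C4-2 (inhibitor experiment with DMSO or GSK2879552, androgen experiment at 3 and 30 days, averaged over vehicle and DHT). Filled symbols passed an adjusted p of 0.05 in edgeR. SLC1A4 lies near 0.9 in the inhibitor experiment and under 0.2 elsewhere, while SLC7A11 lies near 0.65 in both VCaP and C4-2 with DMSO.

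GSK2879552 at 10 uM for 24 h moved few transporter genes of C4-2 cells. Without doxycycline no member was called in edgeR, against 0.678% of genes called (0.619% higher and 0.0597% lower), and none was by DESeq2. At an unadjusted p under 0.05 in edgeR 3 members differed, a cutoff at which the share of all genes was not taken. The 3 were SLC43A1, with 79.0 and 81.9 CPM with GSK2879552 against 66.6 and 65.96 CPM with DMSO (log2 0.28 ± 0.08, edgeR adjusted p = 0.124), SLC36A1 (0.20 ± 0.07, 0.233) and SLC1A4 (0.25 ± 0.09, 0.236). Leaving out either library of this uneven GSK2879552 pair gave 2 higher and 1 lower call, SLC43A1 and SLC36A1 higher and SLC7A11 lower without the first, SLC43A1 and SLC38A2 higher and SLC7A5 lower without the second. With doxycycline 2 members were higher, against 1.34% of genes called (1.24% higher and 0.0923% lower). SLC43A1 had 101 and 89.6 CPM with doxycycline and GSK2879552, against 73.3 and 73.2 CPM with doxycycline and DMSO (log2 0.38 ± 0.08, edgeR adjusted p = 0.0121). SLC36A1 had 168 and 169 CPM with doxycycline and GSK2879552, against 139.6 and 135 CPM with doxycycline and DMSO (log2 0.30 ± 0.07, edgeR adjusted p = 0.0354). The call of SLC43A1 was lost without either doxycycline and DMSO library or the first with GSK2879552 and doxycycline (adjusted p 0.245 to 0.338) and that of SLC36A1 without any library but the GSK2879552-alone pair (0.0923 to 0.545). The other members lay between -0.15 (SLC43A2) and 0.09 (SLC38A2) without doxycycline, and between -0.08 (SLC43A2) and 0.19 (SLC1A4) with it. A difference of the GSK2879552 effect with doxycycline was called for no member (0 at an unadjusted p under 0.05; 0.0163% of genes called in edgeR), with differences from -0.10 ± 0.09 (SLC1A5) to 0.14 ± 0.12 (SLC7A11). The comparisons of this experiment share libraries.

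In LNCaP cells given GSK2879552 at 1 uM for 2 days, SLC7A11 stood apart from the other transporters. It had 261 CPM with GSK2879552 and 82.8 CPM with vehicle, from 3440 and 1149 reads, a ratio of 3.15 (95% Clopper-Pearson interval 2.95 to 3.38). With 1 library per group there is no replicate check, no test across genes was made, and the interval covers counting error only. SLC7A11 was the single member at least 2-fold apart; 1.45% of 11955 genes were at least 2-fold higher and 1.36% at least 2-fold lower. Its partner SLC3A2 had 301 CPM with GSK2879552 and 237 CPM with vehicle (1.27, 1.21 to 1.33), and SLC7A5 had 21.6 CPM with GSK2879552 and 23.3 CPM with vehicle (0.924, 0.785 to 1.09). SLC1A4 had 44.4 CPM with GSK2879552 and 25.3 CPM with vehicle (1.76, 1.54 to 2.01), SLC36A1 19.9 CPM with GSK2879552 and 13.0 CPM with vehicle (1.53, 1.26 to 1.86), and SLC43A1 74.0 CPM with GSK2879552 and 51.8 CPM with vehicle (1.43, 1.30 to 1.58). SLC38A1 (1.40), SLC38A2 (1.33) and SLC1A5 (1.24) had intervals above 1, and SLC43A2, at 101 CPM with GSK2879552 and 126 CPM with vehicle, had one below 1 (0.803, 0.747 to 0.863).

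**Figure D5:**
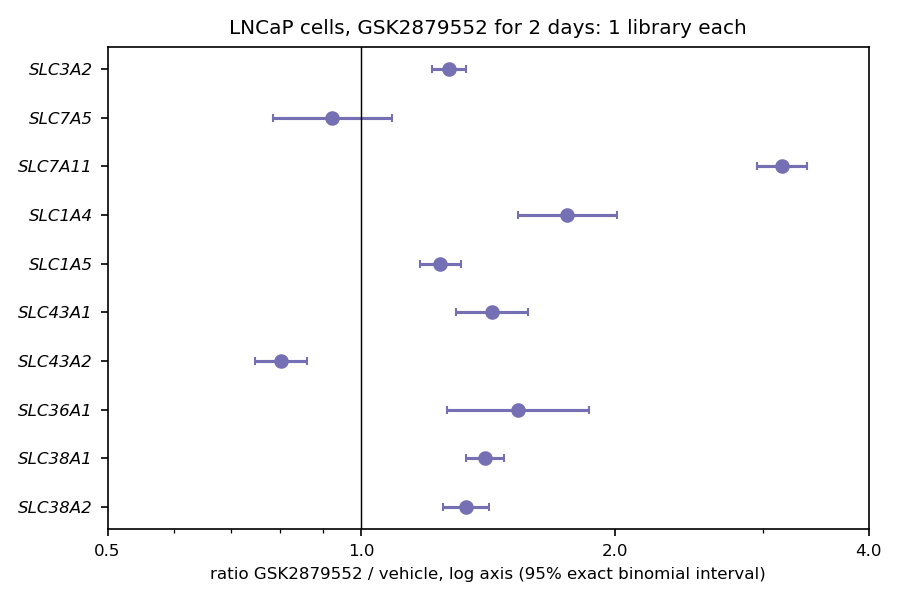
Ratio of GSK2879552 to vehicle in LNCaP cells on a log axis, with 95% exact binomial intervals that cover counting error only, 1 library per group. SLC7A11 lies at 3.15, and the other 9 genes between 0.803 and 1.76.

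Genes of 2 neighbouring pathways were also far apart in the LNCaP pair, named here after their values were seen. Of 18 NRF2 target genes with enough reads 4 were at least 2-fold higher: HMOX1 (3.36, 2.73 to 4.17), the ferritin chain FTH1 (2.54, 2.37 to 2.72), the glutathione synthesis subunit GCLM (2.30, 1.98 to 2.68) and OSGIN1 (2.28, 1.61 to 3.28). Of 32 ATF4 response genes 3 were, DDIT3 (CHOP, 2.81, 2.48 to 3.18), TRIB3 (2.56, 2.43 to 2.695) and the cysteine-forming enzyme CTH (2.08, 1.54 to 2.82). The median log2 ratio was 0.47 for the NRF2 list and 0.36 for the ATF4 list, against -0.01 over all genes. In C4-2 cells, at another dose and time, SLC7A11 stood at -0.12 ± 0.09 without doxycycline and 0.02 ± 0.08 with it (log2). There 0 of 20 NRF2 target genes were called in either setting. At an unadjusted p under 0.05 in edgeR 5 and 6 of them differed, with no share of all genes taken at that cutoff. Doses and times differ, so no comparison is made.

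Over the whole series the members fell into patterns that the 10 changes of a group mean against the control of its own table describe. These changes share controls, and 3 of the 10 come from DHT libraries, so Pearson's r is a description. SLC1A4 and SLC1A5 were most alike (r = 0.98), followed by SLC3A2 with SLC7A11 (0.95) and with SLC7A5 (0.93), and SLC43A1 ran opposite to SLC7A5 (-0.92) and SLC3A2 (-0.87). Among 11571 genes, those most like SLC3A2 were LRP8, ROBO1 and ATF4 (r from 0.985 to 0.995), those most like SLC7A11 were XPOT, TRIB3 and XPO5 (0.99 each), and those most like SLC7A5 were SLC16A10, STEAP3 and SLC35G1 (0.98 to 0.99). SLC1A4 was most like PMAIP1, ZNF37A and NAE1 (0.98 to 0.99), SLC1A5 like DHX9P1, AZIN1 and GADD45A (0.98 to 0.99), and SLC43A1 like FOSL2, LONRF1 and SNX25 (0.99 each). The nearest genes were further off for SLC36A1 (CHMP2B, 0.98), SLC38A1 (FAM13B, 0.96), SLC38A2 (FAM35A, 0.93) and SLC43A2 (RP11-405A12.1, 0.90).

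Some counts could hold reads of neighbours, since the strand setting of the counting was not given in the sources used here. SLC7A11 overlaps the antisense gene SLC7A11-AS1, which had at most 69 reads in any library and changed with DHT in the same direction (log2 -2.01 ± 0.25). SLC7A5 has the pseudogene relatives SLC7A5P1, with at most 25 reads, and SLC7A5P2, with 0 in all libraries, and an antisense gene. SLC1A5 and SLC38A2 each overlap an antisense gene, so small differences of these genes are less certain.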

How the data were processed

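RNA-seq reads of 14 groups were deposited as 30 columns in 4 tables. Per the submitters' processing notes, FastQC 0.11.9, STAR 2.7.2 and featureCounts 1.6.4 were used with hg19 (GRCh37). What the authors deposited are raw counts per gene; the annotation and strand setting were not stated. Paired columns of the androgen and LNCaP tables were summed as sequencing repeats of 1 library, leaving 22 libraries.

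From these counts, edgeR 4.0.16 (TMM, filterByExpr by group, quasi-likelihood F test, Benjamini-Hochberg over all genes, threshold 0.05, SE from the log2 change and F) was fitted per table, under R 4.3.3; a joint fit of VCaP and both C4-2 tables tested differences of effects. Ratios of 1 library to 1 used genes with at least 100 reads in both together and 95% Clopper-Pearson intervals. RPKM used the merged exons of all transcripts of a gene in GENCODE v29, which may not be the annotation of the counts. DESeq2 1.42.0, RLE factors, no filter, total counts, the replicate block, left-out libraries and, in the inhibitor experiment, only the 2 groups compared were tried. Models were tested on simulated data. All 10 members passed the filter in every fit. The text names every member, at most 3 genes per list and direction by smallest p, and up to 3 genes most alike. In LNCaP, where no test was made, it names the genes of the NRF2 and ATF4 lists that were at least 2-fold apart. Members and lists were chosen with earlier results of these data known. Labels do not say whether replicates were separate cultures, so p-values of VCaP and the inhibitor experiment measure the spread between these samples, which may be technical. Those of the androgen experiment, with 1 library per group, rest on departures from the additive fit (2 residual degrees of freedom), moderated across genes. They measure no spread between replicates. The joint fit pools both kinds of spread. GRCh37 sequence and coordinates were not used here.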

Additional observations from a re-analysis of the deposited data

Results flagged for a closer look

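The responses below differed between experiments or lines by the test of the difference itself in the joint edgeR fit. The effect of 3 days of doxycycline was larger in the C4-2 inhibitor experiment than in the C4-2 androgen experiment, on the log2 scale, by 0.78 for SLC1A4, 0.58 for SLC7A11, 0.50 for SLC1A5, 0.44 for SLC38A2, 0.41 for SLC36A1 and 0.38 for SLC38A1. For SLC36A1 the effect was -0.38 in the androgen experiment and 0.02 in the inhibitor experiment. For the other 5 genes it was positive in both. The androgen effect was averaged over vehicle and DHT, and the inhibitor effect was taken with DMSO. The effect of the RB1 siRNA in VCaP differed from that of doxycycline with DMSO in C4-2 by -0.73 for SLC1A4, -0.48 for SLC1A5, -0.47 for SLC38A1 and -0.38 for SLC36A1. Both sets rest on the same 4 C4-2 libraries with DMSO, so they are not separate evidence.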

How the results depend on the processing

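Over all alternatives, the values of the 10 genes kept their side of the threshold in 1612 cases, lost the call in 70 and gained it in 15; no called value changed sign, while values near 0 that were not called did in some cases, such as SLC7A5 in VCaP (-0.41 to 0.31 without each library in turn). Without each library in turn, the members called higher with doxycycline numbered 4 to 7 with DMSO (7 as reported) and 5 to 8 with GSK2879552 (7), those higher with GSK2879552 numbered 0 to 2 without doxycycline (0) and 0 to 2 with it (2), and those lower without doxycycline 0 to 1 (0). After 3 days of doxycycline in the androgen experiment 0 to 1 were higher (0) and 0 to 1 lower (1), and after 30 days 0 to 1 higher (0) and 1 to 2 lower (1); DESeq2 called 0 lower at 3 days. The DHT counts stayed at 3 and 5 without each library; with total counts they were 3 and 7. Calls over all genes for GSK2879552 ran from 41 to 1735 without doxycycline (125) and from 78 to 947 with it (246), and for the difference of both effects from 0 to 195 (3). Those between 30 and 3 days ran from 35 to 352 (56). The difference between both C4-2 experiments was called for 3 to 6 members (6), and that between VCaP and C4-2 for 3 to 4 (4). With total counts no member was 2-fold higher with DHT after 3 days or after 30 days (0 in each, against 1).

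Replicate numbers did not pair the libraries: the correlation of same-numbered deviations was 0.01 to 0.03 in VCaP and -0.12 to 0.04 in C4-2. With the replicate block 2 members were lower in VCaP (SLC43A2 added, adjusted p = 0.0388 in edgeR) and 1 was higher with GSK2879552 and doxycycline. The block also ended doxycycline calls of SLC7A5 (edgeR adjusted p 0.0808) and SLC38A2 (0.0506) with DMSO, and of SLC38A2 with GSK2879552 (0.0552). Fitting only the 2 groups compared ended the doxycycline calls of SLC3A2 (edgeR adjusted p 0.0686) and SLC38A2 (0.0889) with GSK2879552. In the androgen table the DHT effect was fitted within doxycycline levels, and no replicate number was used there or in LNCaP, with 1 library per group.

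Leaving a library out of the C4-2 inhibitor table leaves its group with 1, assumed to vary like the others. With few libraries per group and, in VCaP, 4.31e+06 to 7.11e+06 reads, small changes and SLC7A5 in VCaP lie beyond the precision reached. The pooled C4-2 fit includes the uneven GSK2879552 pair; without that group 7 members were still higher with doxycycline and DMSO (chosen after seeing the data, as were total-count scaling and the left-out libraries of the joint fit).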

Other observations

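Other genes of amino acid handling also moved with DHT in C4-2 cells, where 47.1% of all genes tested were called by edgeR. Of 29 genes of amino acid synthesis and breakdown 5 were higher and 13 lower (median log2 -0.11). GLUL, which makes glutamine from glutamate, averaged 708 CPM with DHT and 314 CPM with vehicle, and GLUD1, which turns glutamate into 2-oxoglutarate, 222 CPM with DHT and 109 CPM with vehicle. BCAT1, a branched-chain aminotransferase, averaged 15.4 CPM with DHT and 56.3 CPM with vehicle. Of 38 genes through which mTORC1 senses amino acids 18 were higher and 9 lower (median log2 0.15): MTOR, the kinase itself, stood at 1.04 ± 0.05 and SAR1B, a leucine sensor, at 0.98 ± 0.05, whereas SESN3 stood at -1.27 ± 0.06. Of 16 genes of glutathione metabolism and ferroptosis 7 were higher, led by GGT1, which cleaves extracellular glutathione (1.02 ± 0.08), and 4 lower, led by CHAC1 (-1.35 ± 0.09).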
